A study of Homo sapiens with 2 samples.

Results

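The desmosome and plakin genes studied here were PPL, EVPL, DSP, JUP, PKP2, PKP3, DSC2, DSG2, PLEC and DST. They were taken as the probe sets whose single gene symbol in the platform annotation was one of these 10 names, which gave 26 probe sets of the 41091 that named 1 gene, and 10 of 19775 named genes. The genes were chosen by family with their values on these arrays already known, so the differences between RD-treated and control cells given for them are a description and not a test. Messenger RNA was measured in PC-3 cells, an androgen-independent line of human prostate cancer, after 24 h with 10 µmol/L Riccardin D (RD), a bisbibenzyl from a liverwort, and in control PC-3 cells. The treatment protocol gives the control cells the DMSO vehicle, whereas their source name calls them not treated, and the dose is stated by the study and not by the labels. A single Affymetrix HG-U133 Plus 2.0 array was run per condition. Hence there was no spread between cultures, no p-value can be given, and any other difference between the cultures cannot be told apart from RD.

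Desmosomes are the junctions that couple the intermediate filaments of neighbouring epithelial cells. The desmogleins (DSG) and desmocollins (DSC) are cadherins that bridge the gap between the cells, plakoglobin (JUP) and the plakophilins (PKP) are armadillo proteins that bind the cadherin tails, and desmoplakin (DSP) ties this plaque to keratin. Desmoplakin is a plakin, a family of large cytoskeletal linkers. Periplakin (PPL) and envoplakin (EVPL) pair with each other and are laid down early in the cornified envelope of squamous epithelia, while plectin (PLEC) and dystonin (DST) link filaments to hemidesmosomes, actin or microtubules depending on the isoform.

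The values are MAS5 signals on a linear scale, and the means trimmed by 2% at each end, 495.8 for control and 495.9 for RD, show like scaling. A difference of at least 2-fold was called higher or lower if the larger signal reached 66.9. This value, the median of all signals, is the floor. A fold whose smaller signal is under the floor was taken against the floor instead and is written "at least". The brightest probe set represented its gene. As the sole available error, log2 differences scattered between a gene's own probe sets with an SD of 0.76 from the floor upward and of 0.34 from 377.4 (the 75th percentile of signals) upward. In such bulk RNA, fewer cells that express a gene and less RNA per cell cannot be told apart. Of the labelled cell type's epithelial markers, KRT18 (10224.2 in control and 15416.6 in RD) and KRT8 (113.8 and 159.3) reached the floor, whereas EPCAM (29.3 and 1.2) and CDH1 (8.3 and 24.5), the epithelial adhesion molecule and E-cadherin, were under it on both arrays. Of 3 androgen-responsive prostate genes, KLK3 reached the floor (131.4 and 230.6), by a probe set whose suffix marks sequence that other transcripts can share. KLK2 (52.4 and 31.6) and TMPRSS2 (57.1 and 37.2) were under the floor on both arrays. Of the markers of other cell types, 0 of 4 leukocyte, 2 of 5 fibroblast and 1 of 4 endothelial genes reached the floor on each array. Their summed signals in control and RD were 102.5 and 76.7, 622.2 and 546.1, and 177.9 and 156.6, and their part in the differences below was not tested.

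Of the 10 genes, 8 reached the floor on at least 1 array, namely all but DSP and DSC2. In each of these 8 the RD signal was the lower, beside 50.1% of all named genes at the floor. EVPL and PKP3 reached the floor on the control array alone, which fixes their direction. PPL, EVPL, PLEC, JUP and PKP3 were called lower and none was called higher. Among all 12818 named genes at the floor, 13.3% were called lower and 12.1% higher, and the median log2 difference (RD minus control) was -0.0022, against -2.10 over the 8 genes. When signals below the floor were set to its value, the median of the 8 genes was -0.93, and 4 of the 5 (all but PKP3) were still at least 2-fold lower. Nearest to the 2-fold threshold were PKP3 and DST. PKP3 was 3.99-fold lower by its deposited signals but at least 1.35-fold lower against the floor, and DST was 1.36-fold lower. The PKP3 value against the floor is a bound and the DST value is not, so their order is not settled by these values. By probe set, 17 of 26 reached the floor, 15 of these had a lower and 2 a higher signal in RD, and 6 were called lower, beside 13.2% of all single-gene probe sets at the floor.

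**Figure D1:**
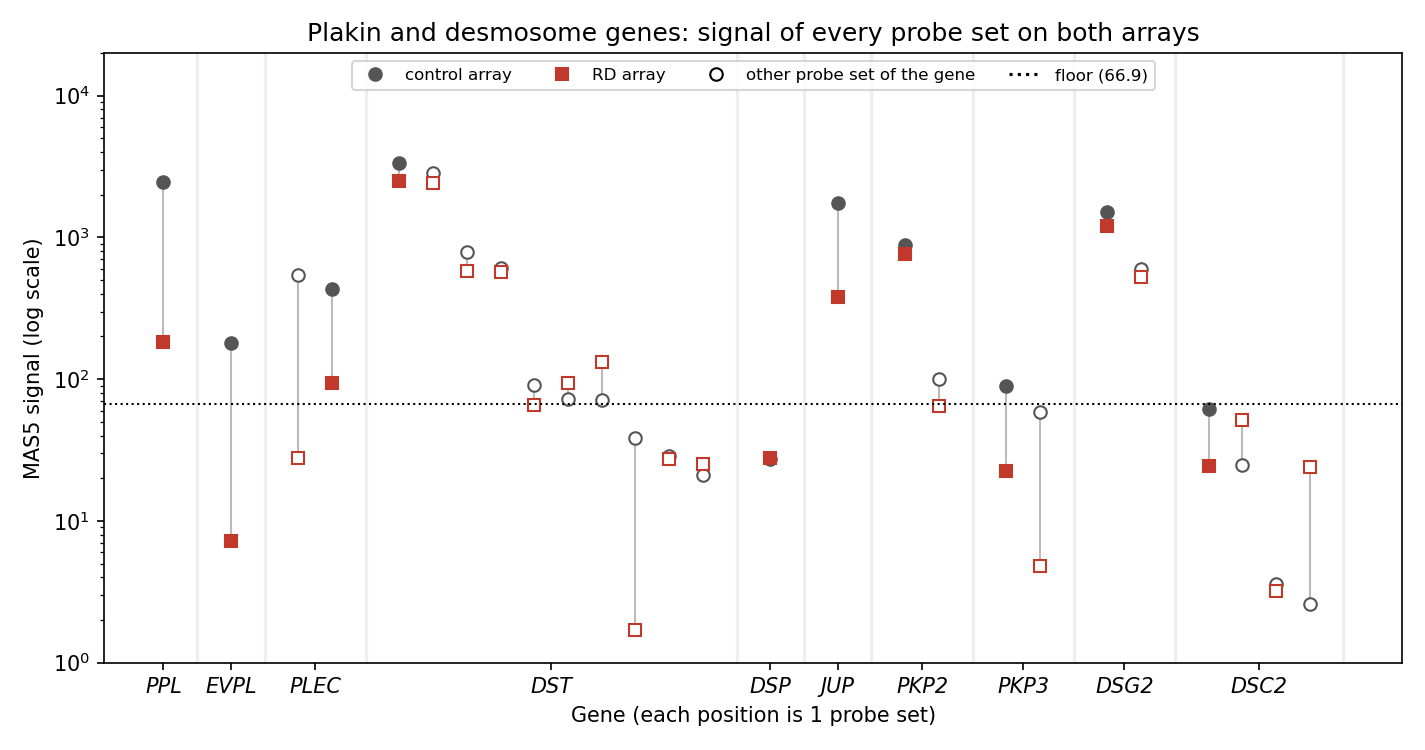
MAS5 signal (vertical, log scale) of each of the 26 probe sets of the 10 genes in control (circles) and RD (squares). Filled symbols mark the probe set used for the gene, open symbols mark its other probe sets, and a dotted line marks the floor (66.9). The filled squares of PPL, EVPL, PLEC, JUP and PKP3 lie below their circles, those of EVPL and PKP3 under the floor, while the filled squares of DST, PKP2 and DSG2 lie within 1.36-fold of theirs.

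The envelope plakins PPL and EVPL were both called lower. The PPL signal was 2442.8 in control and 181.4 with RD, a 13.5-fold lower value (log2 difference -3.75). Both signals were above the floor, and PPL had a single probe set, whose name marks no sequence shared with other transcripts. Of the 7579 genes whose control signal reached the 75th percentile, 6 had a log2 difference below that of PPL. The signal of EVPL, the partner of periplakin, was 179.5 in control and 7.2 with RD. The RD signal lay under the floor, so EVPL was at least 2.68-fold lower, again by a single probe set. With 2 arrays the log2 difference is the whole pattern of a gene. Of 7050 genes that reached the 75th percentile in both conditions, SLC39A10 (13.8-fold lower) and WFDC21P (14.2-fold lower) lay below PPL, and TOP2A (13.4-fold), PLAU (12.1-fold) and CDK1 (10.2-fold) came next above it. PPL itself is not in this group, because its RD signal was under the 75th percentile. Other genes with so low a ratio can be left out for the same reason. Of all 12818 genes at the floor, 63 had a log2 difference below that of PPL.

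The cytolinkers PLEC and DST differed from each other. PLEC, which encodes plectin, had 2 probe sets and both were called lower. Its brightest by mean log2 signal went from 430.7 in control to 93.7 with RD (4.60-fold lower), and the other, with a higher control signal, went from 541.2 to 27.8 (at least 8.09-fold lower). Thus the size of the difference in PLEC depended on the probe set, but not its direction. DST, which encodes dystonin, had 10 probe sets, of which 7 reached the floor. Its brightest had signals of 3373.3 in control and 2488.1 with RD, or 0.738 of control. The next 3 in brightness stood at 0.846, 0.736 and 0.931 of control. Among the 3 dim ones at the floor, 1 was higher in RD, from 71.2 to 133 (1.87-fold), 1 was at 72.8 and 93.7, and 1 was at 91.5 and 65.9. No DST probe set at the floor reached 2-fold. The 3 under the floor on both arrays had signals between 1.7 and 38.3. Which DST isoforms these probe sets read was not analysed here.

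Plakoglobin (JUP) was the desmosomal plaque gene with the lowest ratio among those with both signals above the floor. The JUP signal was 1734.4 in control and 377.2 with RD (4.60-fold lower). JUP had 1 probe set, and the suffix of its name marks sequence that other transcripts can share. Plakoglobin also occurs in adherens junctions, where it can take the place of beta-catenin, and the beta-catenin gene CTNNB1 had signals of 3115.6 and 2862.9 (0.919 of control). With the median over its probe sets, CTNNB1 was 1.41-fold lower. PKP3, a plakophilin of the desmosomal plaque, was near the floor, with 90.1 in control and 22.6 with RD. Against the floor it was at least 1.35-fold lower, so PKP3 is called by its deposited signals alone. Its other probe set, with 58.6 and 4.8, was under the floor on both arrays. In contrast, PKP2, another plakophilin, had signals of 887.9 and 768.9 (0.866 of control), and its dim probe set had 100.1 and 64.9 (at least 1.5-fold lower). DSP, the gene of desmoplakin, read 27.1 in control and 27.7 with RD by its single probe set. No fold is given for it, since both lie under the floor.

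Of the desmosomal cadherin genes DSG2 and DSC2, DSG2 alone was measured above the floor. DSG2, which encodes desmoglein 2, had signals of 1510.6 in control and 1199.5 with RD, or 0.794 of control. Its second probe set, at 602.9 and 527, stood at 0.874. Neither reached 2-fold. DSC2, the gene of desmocollin 2, had 4 probe sets with signals between 2.6 and 61.1, all under the floor on both arrays, with 2 higher and 2 lower in RD. Of the transcripts for the classical desmosome, DSG2, PKP2 and JUP were thus well above the floor in control cells, while those of DSP and DSC2 were not measured above it in either condition.

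**Figure D2:**
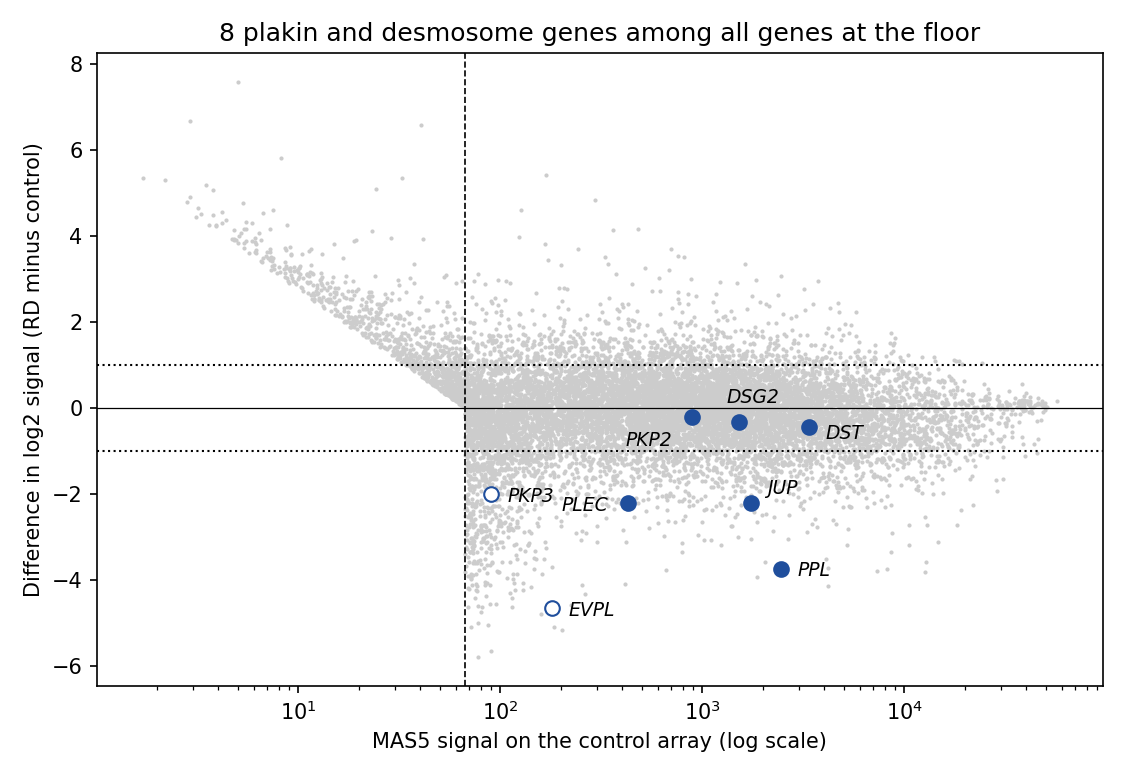
Difference in log2 signal (RD minus control, vertical) of all 12818 genes at the floor (grey) and of the 8 plakin and desmosome genes that reached it (blue), against the signal on the control array (horizontal, log scale). Open symbols have an RD signal under the floor, so their plotted difference is not a bound. Dotted lines mark 2-fold and the dashed line marks the floor. PPL lies at the lower edge of the cloud at its brightness, whereas PKP2, DSG2 and DST lie inside it.

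To show the sequence at the start of a plaque gene that was called lower and of a cadherin gene that was not, the RefSeq promoters of JUP and DSG2 are printed here (GRCh38.p14, 250 bases before to 50 after the start, 5′ to 3′ on the gene's strand). The promoter table held 5 of the 10 genes, namely JUP, DSG2, DSC2, DSP and DST, and not PPL, EVPL, PLEC, PKP2 or PKP3. JUP has a pair of starts in the table, the upstream one at chr17:41786662-41786961 and the downstream one at chr17:41785927-41786226, both on the minus strand, and DSG2 has 1 at chr18:31497927-31498226 on the plus strand. Capitals mark matches on either strand to the motifs searched, which here are GGGCGG (GC box) and CAGGTG (the E2-box bound by SNAI and ZEB factors).
JUP upstream start: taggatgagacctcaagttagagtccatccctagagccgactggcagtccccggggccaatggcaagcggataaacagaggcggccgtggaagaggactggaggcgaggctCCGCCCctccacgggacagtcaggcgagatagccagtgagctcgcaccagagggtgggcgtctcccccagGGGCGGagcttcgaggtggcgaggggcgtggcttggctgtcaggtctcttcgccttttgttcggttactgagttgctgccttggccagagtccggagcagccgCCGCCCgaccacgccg
JUP downstream start: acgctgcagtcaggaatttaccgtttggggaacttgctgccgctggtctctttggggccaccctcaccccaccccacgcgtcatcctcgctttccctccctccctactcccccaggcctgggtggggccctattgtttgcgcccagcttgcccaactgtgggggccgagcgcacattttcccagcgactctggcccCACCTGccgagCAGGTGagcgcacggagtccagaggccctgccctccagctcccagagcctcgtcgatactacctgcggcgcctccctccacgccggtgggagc
DSG2: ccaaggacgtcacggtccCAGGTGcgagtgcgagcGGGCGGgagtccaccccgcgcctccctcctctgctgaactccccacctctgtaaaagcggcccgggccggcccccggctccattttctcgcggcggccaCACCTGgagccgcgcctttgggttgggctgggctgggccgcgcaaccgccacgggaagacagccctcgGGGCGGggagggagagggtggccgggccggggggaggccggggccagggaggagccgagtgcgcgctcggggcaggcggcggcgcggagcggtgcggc

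The upstream JUP promoter held 3 GC boxes and no CAGGTG, and the downstream one held 2 CAGGTG, beginning 54 and 43 bases before the start, and no GC box. The DSG2 promoter held 2 of each. Of 35116 promoters of 300 bases in the table, 45% held a GC box and 20.6% held CAGGTG. The other motifs searched had no match in these 3 sequences. They were the AP-1 site TGANTCA, which 7.71% of promoters held, the C/EBP-ATF response element TGATGNAAN with 3.61%, and the E-box CACGTG with 7.26%. An approximate GRHL site, AACNGGTT, was held by 1.73% and the TATA box, spelled TATAAA, by 11.5%. The GC content was 65.3% and 66.7% for JUP and 76.7% for DSG2, beside a median of 58.7% over all promoters. A match is a description of the letters and not a bound site. Among the SNAI and ZEB factor genes, ZEB1 had signals of 1401.8 in control and 2363.1 with RD (1.69-fold higher), ZEB2 had 407.9 and 606 (1.49-fold higher), and SNAI1 and SNAI2 were under the floor on both arrays. The direction of ZEB2 depended on the probe set, since its brightest one without a shared-sequence suffix was 1.24-fold lower.

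The other genes of cell junctions and of the filaments they anchor were then followed in 8 lists, in which 44 genes reached the floor, 9 were called lower and 3 were called higher, beside 13.3% and 12.1% of all genes. Of 9 other desmosome genes, 3 reached the floor and none was called. PERP, a tetraspan protein of desmosomes, had signals of 4951 and 3801, PKP4 had 1899.6 and 1698.8, and DSC3 had 71.8 and 67.2, with a median log2 difference of -0.16. DSG1, DSG3, DSG4, DSC1, PKP1 and CDSN were under the floor. Thus, of the desmosomal plaque genes followed here, JUP was the one at least 2-fold lower with both signals above the floor.

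Of 6 other plakins and partners, all at the floor, EPPK1 (epiplakin) was called lower, with 108.9 and 40.4 (at least 1.63-fold), and KAZN (kazrin, which binds periplakin) was called higher, with 35.5 and 79 (at least 1.18-fold). MACF1, a spectraplakin and close relative of DST, had signals of 6215.4 and 5814.5 (0.935 of control), and the median of the list was -0.26. MACF1 was 1.02-fold lower with the median over its probe sets, but 1.77-fold lower by its brightest one without a shared-sequence suffix. The intermediate filament genes to which the plakins attach were mixed. KRT7 was 2.25-fold lower, from 5497.8 to 2440.5, KRT18 was 1.51-fold higher, and VIM (vimentin) had 29512.2 and 31652.1. The median of the 4 such genes at the floor was 0.29.

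Hemidesmosomes attach epithelial cells to the basement membrane, with plectin and the epithelial form of dystonin on their inner side. Of 4 such genes at the floor, the integrin subunits ITGA6 (2151.5 in control and 848.8 in RD, 2.53-fold lower) and ITGB4 (1044.3 and 502.5, 2.08-fold lower) were called lower. ITGB4, which encodes the integrin chain that binds plectin, was 1.82-fold lower with the median over its probe sets. CD151, a tetraspanin partner of these integrins, was at 0.543 of control, and LAMB3, a chain of their laminin ligand, was 2.15-fold higher, from 67.8 to 146. The median of the list was -0.97. Of 8 adherens junction genes, VCL (vinculin, 4609.8 and 1334.5, 3.45-fold lower) and CDH2 (N-cadherin, 1406.9 and 527.8, 2.67-fold lower) were called lower, and CTNNA1 (alpha-catenin) was 1.55-fold higher. With the median over probe sets neither was called, since CDH2 was then 1.93-fold lower and VCL was 1.31-fold higher. The 2 VCL probe sets at the floor went opposite ways. The median of 2 values is their mean, so the second was more than 3.45-fold higher in RD. The direction of VCL thus depended on the probe set. Both VCL probe sets carry a suffix for shared sequence, and CTNNA1 was 4.06-fold higher by the brightest of its probe sets that carry none. NECTIN1 was 1.98-fold lower and passed 2-fold after median centring (2.03-fold) and after quantile normalization (2.04-fold). The median was -0.34.

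Tight junction genes at the floor lay on the other side of 0. All 7 had a higher signal in RD-treated cells, with a median of 0.53. So had 6390 of all 12818 named genes at the floor. TJP3 (37.8 and 73.1) reached the floor on the RD array alone, which fixes its direction. Under the floor on both arrays, CLDN3, CLDN4, CGN and MARVELD3 had a lower and CLDN7 a higher signal in RD. TJP1, the scaffold protein ZO-1, was called higher at 2.04-fold, from 4252.6 to 8693.1, and was 1.99-fold higher after median centring. OCLN (occludin) was 1.83-fold higher, and PARD3, at 1.15-fold, was the least different. Of 15 cornified envelope genes on the array, 10 were under the floor, including the envelope protein genes IVL and LORICRIN, and none of the 5 at the floor was called. S100A10 was lowest at 0.557 of control and ANXA1 was highest at 1.25-fold, and the median of the list was 0.17. With the median over probe sets, S100A10 was 2.04-fold lower and ANXA1 was 1.94-fold higher. Most of the listed genes that PPL and EVPL accompany in the squamous envelope were thus not measured above the floor in either condition.

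Of 7 transcription factor genes of epithelial junctions, TWIST1 (68.9 and 4.6), ELF3 (100.2 and 14.9) and OVOL1 (130.5 and 55.7) were called lower by their deposited signals, but their bounds of at least 1.03-fold, 1.5-fold and 1.95-fold were all under 2-fold. ZEB1 was at the other end, and the median of the list was -0.38. With signals under the floor raised to the floor, the median was -0.043, and none of these genes was called lower.

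**Figure D3:**
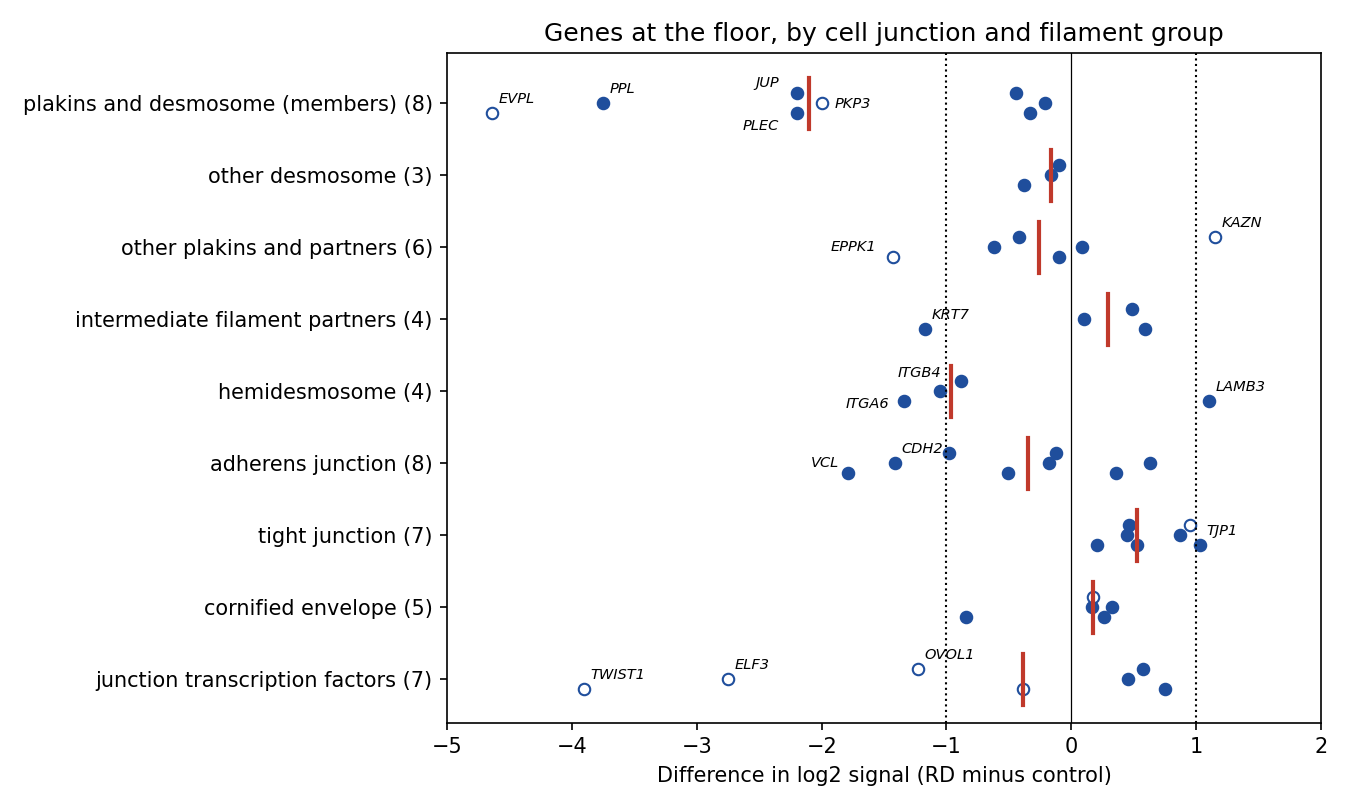
Difference in log2 signal (RD minus control, horizontal) of each gene at the floor, for the plakin and desmosome genes and for the 8 lists (gene numbers in brackets). Red bars are medians, dotted lines mark 2-fold, and open symbols have a signal below the floor (the difference drawn is then no bound). The 8 plakin and desmosome genes, which were chosen with their values known, have a median of -2.10, and the 7 tight junction genes all lie to the right of 0.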

How the data were processed

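PC-3 cells treated with RD and control PC-3 cells were each measured on 1 array. The authors deposited linear intensities, computed with MAS5 per the labels. Neither its version nor its scaling target is given in the sources used here. MAS5 corrects for mismatch probes, so signals under the floor are noisy. The deposited values were used with no offset and no further scaling. Probe sets were named through the platform annotation, and 0 symbols changed through the RefSeq gene table. Of 54613 probe sets, 41091 named 1 gene, 1801 named several and stood for none, and 11721 are not named here. No test was made, since each condition had 1 array, and this number of arrays sets the precision.

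The members, lists, motifs and rules were chosen with earlier results of these data known. The text names all members, the list genes called or at either end, the markers, and the genes next to PPL. SNAI1, SNAI2, ZEB2, KRT18, VIM, MACF1, CTNNB1, CD151, NECTIN1, OCLN, TJP3, PKP4, and the list genes under the floor were named after their values were seen. The alternatives were median centring, an offset of 17.1 (the 25th percentile of signals), quantile normalization, raising signals to the floor, the median over probe sets, probe sets without shared-sequence suffixes, other floors and thresholds of 1.5-fold and 3-fold. The scripts were tested on simulated data. The tools were pandas 2.3.3, numpy 2.4.6 and matplotlib 3.10.9 under Python 3.11.15.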

Additional observations from a re-analysis of the deposited data

How the results depend on the processing

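PPL, JUP, PLEC and EVPL were called lower under median centring, quantile normalization, the offset, raising signals to the floor and the median over probe sets. The 8 members at the floor kept their direction under each alternative that gave them a value. DSP and DSC2, under the floor, were not followed singly. Over the alternatives, the log2 difference of PPL lay between -3.80 and -3.63, that of JUP between -2.25 and -2.15, that of PLEC between -4.28 and -2.01 and that of EVPL between -4.68 and -1.42. PKP3 was no longer called with signals raised to the floor (-0.43), which its dim signals bring about by construction. The members called lower numbered 3 with the floor at the 75th percentile (median -1.32, 6 genes) and 3 with only probe sets without a shared-sequence suffix (median -3.75, 5 genes, without JUP, PKP2 and PKP3). The members' median was -1.66 with no floor, -1.72 with the offset and -0.93 with signals raised to the floor. Of the context genes, 8 were called higher at 1.5-fold, 0 at 3-fold, 1 with the floor at the 75th percentile, 14 with no floor and 1 with the offset. Called lower were 3 at 3-fold, 5 with the floor at the 75th percentile, 16 with no floor and 5 with signals raised to the floor. The transcription factor median was 0.66 with the floor at the 75th percentile (2 genes), 0.47 with no floor and -0.043 with signals raised to the floor, and the intermediate filament median was -1.34 (1 gene) without shared-sequence probe sets. Over all genes, 3169 were called lower and 2925 higher at 1.5-fold, 775 and 668 at 3-fold, 881 and 802 with the floor at the 75th percentile, and 3566 and 3321 with no floor, against 1707 and 1551 as reported. With the median over probe sets, CDH2, VCL and ITGB4 lost their calls, and VCL turned to a log2 difference of 0.39. No paired analysis was possible because each condition had 1 array.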
